A study of Mus musculus with 7 samples.

Results

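AMP-activated protein kinase (AMPK) is built from a catalytic α, a scaffolding β, and a nucleotide-binding γ subunit, and 8 genes of this kinase system were followed in Pax7-GFP cells, labeled as muscle stem cells, that were sorted from mice kept in normal or raised CO2. The 8 genes were Prkaa1 and Prkaa2 (α1 and α2), Prkab1 and Prkab2 (β1 and β2), Prkag2 and Prkag3 (γ2 and γ3), and the upstream kinases Stk11 (LKB1) and Camkk2. They were taken by gene symbol from a table of 23930 genes, and all 8 were in it. The γ1 gene Prkag1 was not analysed here. The table holds RPM, read counts scaled to the same total in every library, for 7 libraries, of which 3 are normocapnia (NC1, NC2, and NC3) and 4 hypercapnia (HC1, HC2, HC3, and HC4). All mice carried an inducible Pax7-GFP reporter, in which a tamoxifen-activated Cre (CreERT2) is expressed from the Pax7 locus and removes a lox-flanked STOP cassette in front of ZsGreen under the CAG promoter, so that labeled cells and their progeny stay green. All mice of both groups received tamoxifen in their chow, entered the exposure at 12 weeks of age, and were collected at 16 weeks after 4 weeks in room air (normocapnia) or in a chamber with raised CO2 (hypercapnia). The genotype field names Inducible Pax7-GFP C57BL/6 for NC1 and a strain number that goes up with each later library, while the growth protocol gives C57/B6 for all of them. The study's methods describe a cardiotoxin injury of the leg muscles before collection, which the sample labels do not mention. The title of the deposited table carries a time in hours, which the labels do not explain, while the study's methods describe RNA from cells freshly sorted after the injury, with no culture step. The study states that its experiments used mice of both sexes, but nothing in the labels gives the sex behind each library. Nor do the labels say whether each library is 1 mouse or a pool. The p-values therefore measure the spread between libraries, which may be technical in part.

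AMPK senses falling energy: AMP or ADP bound to the γ subunit favors phosphorylation of the α subunit by an upstream kinase, and the active enzyme slows anabolic pathways and promotes catabolism and autophagy. LKB1, the product of Stk11, is its main upstream kinase in energy stress, and CaMKK2 phosphorylates the same site when calcium rises. Among the isoforms, α2, β2, and γ3 are known from skeletal muscle fibers, whereas α1 and β1 are found in most cell types. The study measured AMPK protein, its phosphorylation, and its transcript in cultured myoblasts, and the comparison here asks whether the transcripts of the subunits and of the upstream kinases differed between the groups in the sorted cells. Activity of a kinase set by phosphorylation cannot be read from these data.

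Total reads per library ran from 14527445 (NC3) to 23388710 (NC2), so that 1 read was worth 0.0428 to 0.0688 RPM. Satellite cell transcripts differed widely between the libraries. Pax7 itself ran from 4.34 RPM in NC3 to 268 RPM in NC1. The normocapnia libraries resembled each other less (Pearson's r of log2(RPM + 1) over genes of 0.69 to 0.79) than the hypercapnia libraries did. HC1 resembled HC2 (0.99) and HC3 resembled HC4 (0.98), while the other hypercapnia pairs were at 0.90 to 0.92. Some pairs across the groups were as alike as those, such as NC1 with HC3 (0.92) and NC2 with HC1 (0.92). The label of muscle stem cells was not borne out alike by its markers. NC3 had 4.34 RPM of Pax7 and 29108 RPM of the macrophage marker Lyz2. Its Myog (the myogenic factor myogenin) was at 0.138 RPM, from 2 reads, below the floor of 3 reads used here. NC2 had 8.25 RPM of Pax7 and 13313 RPM of Lyz2. Lyz2 was at 8354 RPM or more in every library and at 13410 to 16728 RPM in hypercapnia, above NC2. Other macrophage markers were mixed. Adgre1, Cd14, C1qb, and Cx3cr1 were lowest in NC3, whereas Cd68, Fcgr1, and Ms4a7 were, like Lyz2, higher in NC3 than in NC1 and NC2. Since bulk RNA was measured, fewer cells of a type and less RNA per cell cannot be told apart. The AmpliSeq assay reads 1 amplicon per gene, and amplicons differ in how well they amplify, so levels are compared between libraries for a gene. Where a gene is called the most abundant of a list, or is said to lead a sum, this means the highest RPM and not more transcript.

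For the "AMPK" transcript the study designed 1 primer pair for quantitative PCR, shown here because it tells which subunit that readout covers. The forward primer matches exon 8 (chr15:5177109-5177131) and the reverse primer exon 9 (chr15:5178714-5178735) of Prkaa1, both in coding sequence on the plus strand of GRCm38 (GENCODE annotation).
forward: aggaagaatcctgtgacaagcac
reverse: ccgatctctgtggagtagcagt
Among 141767 annotated mouse transcripts, the pair matched exactly only the 2 transcripts of Prkaa1, with a product of 145 bases. It therefore reads α1 and neither Prkaa2 nor a β or γ subunit.

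The sequences just upstream of the Prkaa1 and Prkaa2 starts are shown because these genes encode the same subunit and had different orders of libraries. Both runs are the 250 bases before the RefSeq gene start in GRCm38.p6, written 5′ to 3′ on the strand of the gene, chr15:5143611-5143860 (plus strand) for Prkaa1 and chr4:105109899-105110148 (minus strand) for Prkaa2. Capitals mark matches on either strand to the GC box GGGCGG and to the E-box CANNTG.
Prkaa1: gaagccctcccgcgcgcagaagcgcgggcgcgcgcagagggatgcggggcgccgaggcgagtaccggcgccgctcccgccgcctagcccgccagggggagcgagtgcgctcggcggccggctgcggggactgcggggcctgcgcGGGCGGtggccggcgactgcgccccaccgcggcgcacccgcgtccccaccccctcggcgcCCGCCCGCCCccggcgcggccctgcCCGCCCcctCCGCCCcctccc
Prkaa2: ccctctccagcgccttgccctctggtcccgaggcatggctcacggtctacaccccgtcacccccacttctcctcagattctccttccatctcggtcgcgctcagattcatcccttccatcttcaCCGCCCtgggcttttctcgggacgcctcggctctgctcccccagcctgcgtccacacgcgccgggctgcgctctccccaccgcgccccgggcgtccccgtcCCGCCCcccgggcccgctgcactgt
The Prkaa1 window held 5 GC boxes, some of them overlapping, in 85.2% G and C, and the Prkaa2 window held 2 in 70.0%. Neither held an E-box. Over 32851 mouse promoter windows of this length, 32.7% held a GC box, 66.2% held an E-box, and the median G and C content was 52.4%. Of the other members, Prkab2 had 5 GC boxes, Camkk2 had 1, and Prkab1, Prkag3, and Stk11 had none, and the 3 start sites of Prkag2 had 2, 0, and 1. A match to these letters is a description of the window and not a binding site.

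None of the 8 members was called as different between hypercapnia and normocapnia at the thresholds of the study, an unadjusted p under 0.05 with a fold change above 1.5 (limma on log2(RPM + 1)). In all, 615 genes were called, 2.57% of the 23930 tested, with 343 higher (1.43%) and 272 lower (1.14%). No member passed an unadjusted p under 0.05 alone, which 4.66% of all genes did, and no gene of the table passed after Benjamini-Hochberg adjustment. On recovered whole reads, edgeR (6.03% of genes called) and DESeq2 (6.25%) also called 0 of the 8, with 0 at an unadjusted p under 0.05 in each. Their calls over all genes leaned the other way, with 294 higher and 508 lower by edgeR and 519 higher and 785 lower by DESeq2. After adjustment DESeq2 called 29 genes, edgeR 0, and limma 8 without NC1 and 1 without NC3, with no member among them. The fitted differences of the members ran from -0.37 to 0.22 on the log2 scale, 4 above and 4 below 0, with a median of 0.02, equal to the 0.02 over all genes and below the 0.16 over genes averaging at least 1 RPM. This balance of signs depended on the analysis. With median-of-ratios scaling, edgeR, and DESeq2, 7 of the 8 were below 0, with Prkaa2 the exception, and with quantile scaling 6 were. Without NC2, 7 were also below 0, with Camkk2 the exception. The differences were also larger with edgeR and DESeq2, at -0.75 and -0.80 for Prkaa1, -0.51 and -0.57 for Prkab1, -0.40 and -0.46 for Prkag2, and -1.13 and -1.17 for Prkag3. The 95% intervals were wide, and for all 8 genes they reached past a 1.5-fold difference in at least 1 direction, so these libraries do not show that the groups were alike.

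Of the catalytic subunits, Prkaa1 (α1) had 63.0, 67.7, and 145.9 RPM in NC1, NC2, and NC3, in this order, against 64.4, 62.3, 71.7, and 65.9 RPM in the hypercapnia libraries from HC1 on. Values of other genes follow the same order of libraries. NC3 stood alone, and the other 6 libraries lay within a narrow band in which the groups were interleaved. The group means were 92.2 ± 46.6 RPM (SD, n = 3) in normocapnia and 66.0 ± 4.03 RPM (SD, n = 4) in hypercapnia. The log2 difference was -0.37 (SE 0.31, 95% interval -1.14 to 0.40), or 0.774-fold with an interval of 0.453 to 1.32, and the adjusted p was 0.915 (limma). Without NC3 it was 0.01, and without NC1 -0.59, so its size turned on the library left out.

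Prkaa2 (α2), the catalytic isoform of muscle fibers, was at a low level throughout, with 4.55, 0.941, and 0.757 RPM in normocapnia and 0.813, 1.21, 3.12, and 4.67 RPM in hypercapnia. These values rest on 11 to 102 reads per library, all above the floor of 3 reads. NC1, HC3, and HC4 were high and the other 4 libraries low, a division that cut across the groups. The means were 2.08 ± 2.14 RPM (SD, n = 3) and 2.45 ± 1.79 RPM (SD, n = 4). The log2 difference was 0.22 (SE 0.60, 95% interval -1.29 to 1.73, adjusted p = 1, limma).

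Of the scaffolding subunits, Prkab1 (β1) had 82.8, 52.9, and 98.7 RPM in normocapnia and 65.1, 53.9, 64.4, and 64.1 RPM in hypercapnia. All 4 hypercapnia libraries lay between the lowest and the highest normocapnia library. The means were 78.1 ± 23.3 RPM (SD, n = 3) and 61.9 ± 5.35 RPM (SD, n = 4), a log2 difference of -0.29 (SE 0.22, 95% interval -0.85 to 0.27, adjusted p = 0.915, limma). Leaving out NC2 moved it to -0.54 with an unadjusted p of 0.0073 (limma), a change still under 1.5-fold. Prkab2 (β2), the muscle-enriched isoform, had 72.1, 20.4, and 19.9 RPM in normocapnia and 27.9, 21.9, 37.3, and 45.4 RPM in hypercapnia. NC1 was the highest library and NC2 and NC3 the lowest, with hypercapnia in between. The means of 37.5 ± 30.02 RPM (SD, n = 3) and 33.1 ± 10.4 RPM (SD, n = 4) gave a log2 difference of 0.04 (SE 0.54, 95% interval -1.30 to 1.39, adjusted p = 1, limma). Its sign was negative with median-of-ratios and quantile scaling and with edgeR and DESeq2.

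Of the nucleotide-binding subunits, Prkag2 (γ2) had 14.2, 20.7, and 41.9 RPM in normocapnia and 27.7, 24.1, 19.4, and 21.9 RPM in hypercapnia. The order of the normocapnia libraries was the reverse of that for Prkab2, and hypercapnia again fell between the extremes. The means were 25.6 ± 14.5 RPM (SD, n = 3) and 23.3 ± 3.50 RPM (SD, n = 4), with a log2 difference of -0.01 (SE 0.37, 95% interval -0.93 to 0.92, adjusted p = 1, limma). An antisense gene, Prkag2os1, lies within Prkag2, and at 0 to 11.1 RPM it had its own order of libraries. Whether the counting used the strand is not given, so reads of the pair cannot be assigned with certainty.

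Prkag3 (γ3), known from fast-twitch muscle fibers, varied the most of the 8. It had 17.9, 0.641, and 0.688 RPM in normocapnia and 2.05, 0.653, 3.25, and 4.33 RPM in hypercapnia, from 10 to 401 reads. NC1 was 27.9-fold above the lowest library of its own group, NC2. The means were 6.41 ± 9.94 RPM (SD, n = 3) and 2.57 ± 1.58 RPM (SD, n = 4), and the log2 difference was -0.19 (SE 1.02, 95% interval -2.74 to 2.35, adjusted p = 1, limma). Without NC1 the difference was 0.97, in the opposite direction.

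Of the upstream kinases, Stk11 (LKB1) had 232, 143, and 135 RPM in normocapnia and 147, 168, 191, and 182 RPM in hypercapnia. It was the steadiest of the 8, with 1.73-fold between its highest and lowest library. The means were 170 ± 54.3 RPM (SD, n = 3) and 172 ± 19.0 RPM (SD, n = 4), with a log2 difference of 0.06 (SE 0.22, 95% interval -0.49 to 0.60, adjusted p = 1, limma). Camkk2, the calcium-dependent kinase, had 60.6, 120.9, and 52.2 RPM in normocapnia and 76.1, 75.8, 74.5, and 86.6 RPM in hypercapnia. NC2 was the highest library for this gene alone among the 8, and the hypercapnia libraries lay within 1.16-fold of each other. The means of 77.9 ± 37.5 RPM (SD, n = 3) and 78.3 ± 5.60 RPM (SD, n = 4) gave a log2 difference of 0.10 (SE 0.30, 95% interval -0.64 to 0.85, adjusted p = 1, limma). Without NC2 it was 0.47 with an unadjusted p of 0.0056 (limma), again under 1.5-fold. With median-of-ratios scaling, edgeR, and DESeq2 on all 7 libraries its sign was negative.

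**Figure D1:**
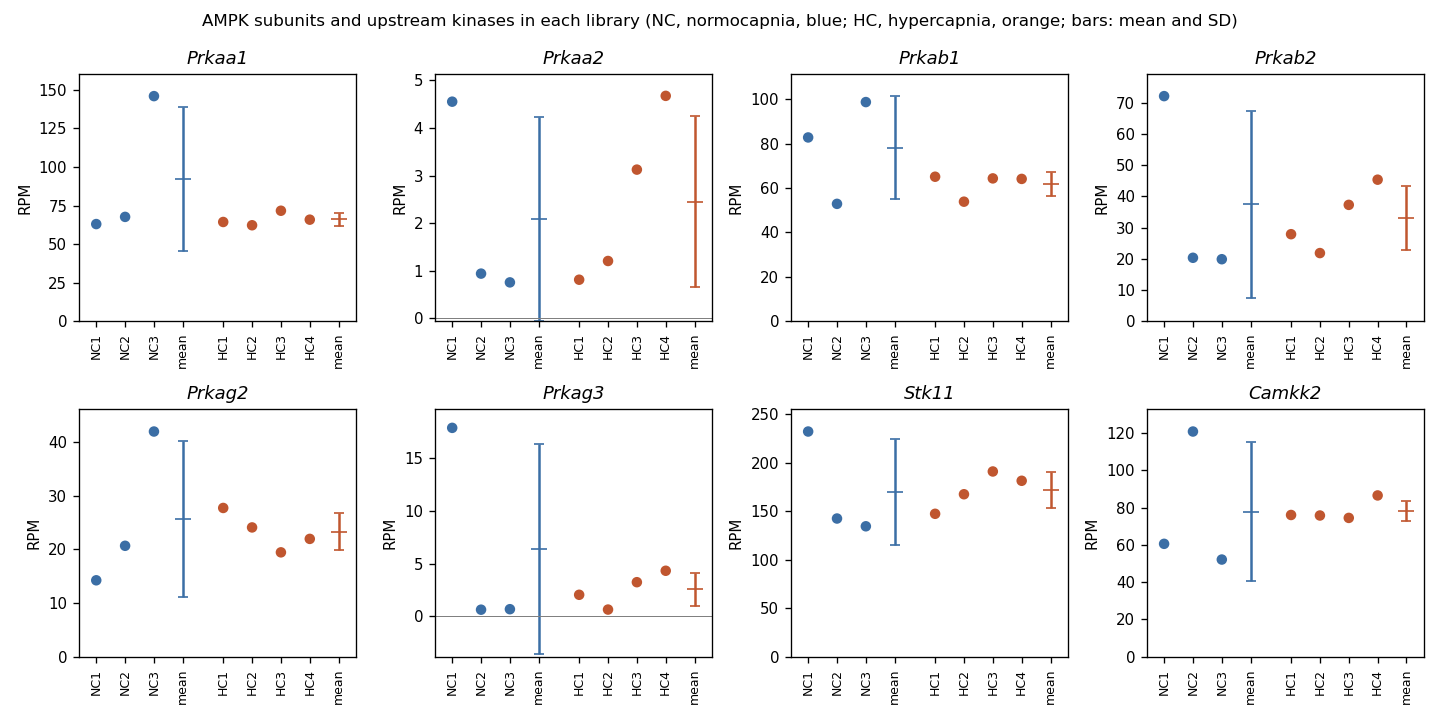
RPM (vertical axes, linear, 1 panel per gene) of the 8 genes in each library, with blue points for NC1 to NC3, orange points for HC1 to HC4, and bars for the mean and SD of each group. The normocapnia points span the hypercapnia points in 6 of the 8 panels, and single libraries (NC3 for Prkaa1 at 145.9 RPM, NC1 for Prkag3 at 17.9 RPM) set the normocapnia means.

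The spread within normocapnia was the common feature of the 8 genes. The SD of log2(RPM + 1) was larger in normocapnia than in hypercapnia for 8 of 8, as it was for 88.6% of the 8229 genes averaging at least 10 RPM. Prkaa2 and Prkag3 average below 10 RPM, so for these 2 members the shares of those genes given here and for the order of libraries come from more abundant genes. All 4 hypercapnia libraries lay within the normocapnia range for 6 of 8, the exceptions being Prkaa1 and Prkaa2, against 45.2% of those genes. For none of the 8 did the groups fail to overlap, compared with 9.62% of those genes. Leaving out 1 normocapnia library at a time turned the sign of the difference for 7 of the 8, all but Prkab1, and left 0 of 8 called each time.

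**Figure D2:**
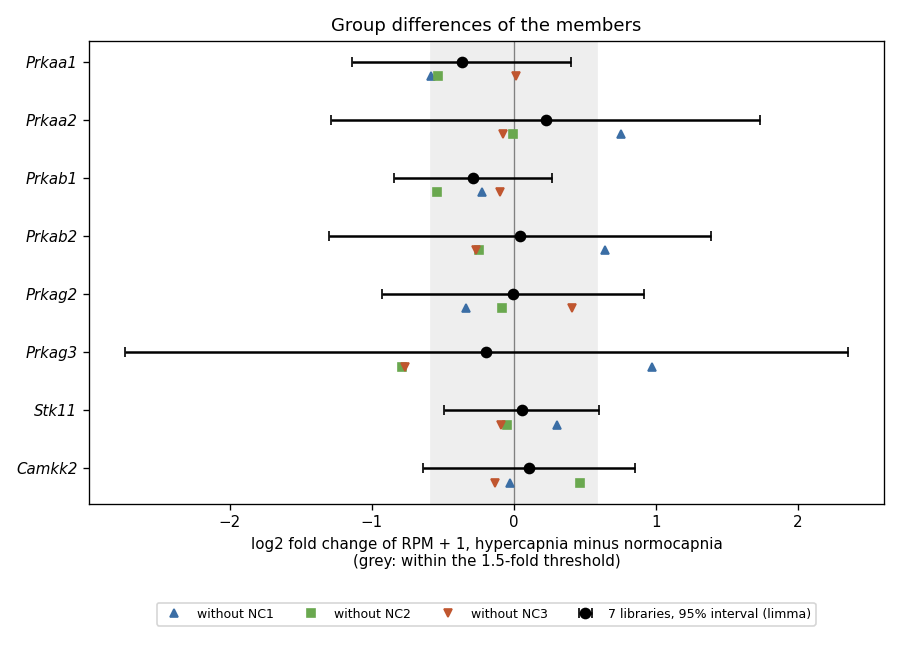
Log2 difference in RPM + 1 between hypercapnia and normocapnia (horizontal axis, hypercapnia minus normocapnia) for each gene, with black points and bars for the 7-library value and its 95% interval and colored symbols for the value without NC1, NC2, or NC3. Every interval includes 0, and the Prkag3 value moves from -0.19 to 0.97 without NC1.

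Ratios of isoforms of the same subunit, in which a factor common to both genes of a library largely cancels, were then compared. The log2 ratio of Prkaa1 to Prkaa2 was 3.53, 5.15, and 6.39 in normocapnia and 5.17, 4.84, 4.14, and 3.56 in hypercapnia. The normocapnia libraries held both the lowest and the highest value. The means were 5.02 ± 1.43 (SD, n = 3) and 4.43 ± 0.72 (SD, n = 4), and the difference of -0.59 gave a p of 0.60 in a two-sided exact permutation test. For Prkab1 to Prkab2 the log2 ratio was 0.20, 1.34, and 2.25 in normocapnia and 1.19, 1.26, 0.77, and 0.49 in hypercapnia, a difference of -0.33 (exact permutation p = 0.60). For Prkag2 to Prkag3 it was -0.31, 3.72, and 4.67 in normocapnia and 3.23, 3.92, 2.27, and 2.10 in hypercapnia, a difference of 0.19 (exact permutation p = 0.914). NC1 was lowest and NC3 highest in all 3 ratios, and within hypercapnia HC3 and HC4 were below HC1 and HC2 in all 3. Adjusted over the 3 ratios, the exact permutation p-values were 0.90, 0.90, and 0.914, and the 35 splits of 7 libraries allow none below 0.0286.

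**Figure D3:**
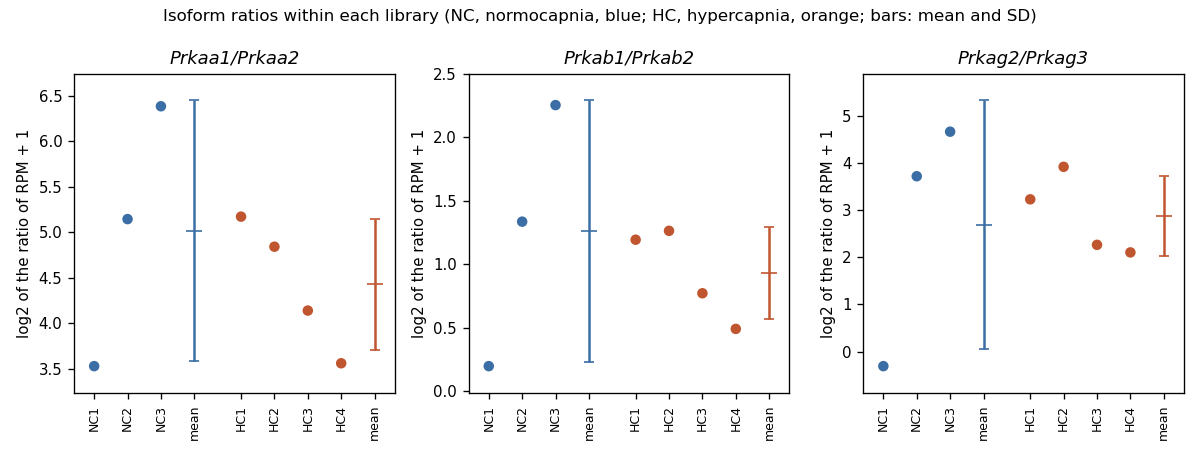
Log2 ratio of RPM + 1 (vertical axes) of Prkaa1 to Prkaa2, Prkab1 to Prkab2, and Prkag2 to Prkag3 in each library, with blue points for normocapnia, orange points for hypercapnia, and bars for the group mean and SD. In each panel NC1 is the lowest and NC3 the highest point, and the hypercapnia points lie between them.

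The order of the libraries divided the 8 genes. For Prkaa2, Prkab2, Prkag3, and Stk11, NC1, HC3, and HC4 were the 3 highest libraries (19.9% of the 8229 genes averaging at least 10 RPM). Prkaa1, Prkab1, and Prkag2 were highest in NC3 (19.7%), Prkab2, Prkag3, and Stk11 in NC1 (30.3%), Camkk2 in NC2 (18.3%), and Prkaa2 in a hypercapnia library, HC4 (31.6%). Over the 7 libraries, log2(RPM + 1) of Prkab2 and Prkag3 had a Pearson's r of 0.99, and Prkag2 and Stk11 of -0.83. These are descriptions over 7 points that share libraries, depth, and cell makeup.

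Several sums of cell type markers were highest in the same 3 libraries. The summed level of 12 satellite cell markers ran from 606 to 4597 RPM in normocapnia and from 825 to 1746 RPM in hypercapnia, with NC1, HC3, and HC4 the highest and NC3 the lowest. Pax7 had 268, 8.25, and 4.34 RPM in normocapnia and 21.5, 20.1, 79.5, and 59.7 RPM in hypercapnia. Of the most abundant genes of this list, the intermediate filament gene Des had 1193, 125, and 35.9 RPM in normocapnia and 126, 115, 382, and 345 RPM in hypercapnia, while the proteoglycan gene Sdc4 ran from 429 to 781 RPM. The sum of 9 of 10 myofiber markers, led by the contractile genes Tnnt3 and Mylpf, ran from 288 to 5544 RPM in normocapnia and from 443 to 2625 RPM in hypercapnia, and was also highest in NC1, HC4, and HC3, though without Tnnt3 NC2 ranked above HC3. The same 3 libraries were highest for the endothelial sum (7 of 7 genes, led by Pecam1 and Cdh5, at 89.3 to 222 RPM and 47.6 to 511 RPM) and the fibro-adipogenic sum (6 of 7 genes, led by Dcn and Col1a1, at 998 to 1848 RPM and 870 to 2278 RPM), the latter only with Dcn, without which HC1 ranked above HC3. The sum of 12 macrophage markers, led by Lyz2 and Cd68, was 12422 to 35057 RPM and 20209 to 25181 RPM, highest in NC3 and lowest in NC1, and C1qa stayed under 1 RPM throughout. The NC3 sum rested on Lyz2, the only gene of the list that was highest there. Without Lyz2 the sum was 4068 to 10069 RPM and 5758 to 8453 RPM, highest in NC2. Of this list, Adgre1 and Ms4a7 were called, both higher in hypercapnia, and no gene of the other marker lists was called. The neutrophil sum (7 of 7 genes, led by Mmp9 and Csf3r) ran from 360 to 1467 RPM and from 236 to 509 RPM, with Ly6g and Camp under 1 RPM. Its peak in NC2 was Mmp9 alone, and 5 of the 7 genes were highest in HC3. Lymphocyte markers (5 of 6 genes, led by Ms4a1 and Nkg7) summed to at most 3.05 RPM and were also highest in HC4, NC1, and HC3. So was Alas2, a heme synthesis gene of red blood cells, at 15.4, 0.214, and 0.413 RPM in normocapnia and 1.33, 0.201, 5.12, and 3.12 RPM in hypercapnia. No marker of these lists was at 0 in every library. The part of these markers in the levels of the 8 genes was not tested.

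The genes whose pattern over the 7 libraries was most like each member were sought among genes averaging at least 10 RPM. For Prkaa1 these were Cnih4 (Pearson's r 0.997, Spearman's rho 0.93), Spi1 (0.997, 0.86), and Ctnnbl1 (0.99, 0.93). Spi1 encodes PU.1, a transcription factor of myeloid cells. For Prkaa2 they were Ephx1 (Pearson's r 0.99), Uspl1 (0.98), and Tmem216 (0.98), and for Prkab1 Fmr1 (0.99), Fgfr1op2 (0.99), and March5 (0.99). For Prkab2 they were Zfp24, Paip1, and Rbm17 (0.99 each), and for Prkag2 Cacul1 (0.996), A630001G21Rik (0.99), and Anxa1 (0.99). For Prkag3 they were Aasdhppt (0.998), Prkab2 (0.99), and Cep85l (0.98), and for Stk11 Large, Kank2, and Tln2 (0.99 each). Camkk2 was most like Itgb2 (Pearson's r 0.97, Spearman's rho 0.71), a leukocyte integrin subunit, Dnajb1 (0.97, 0.89), and Aifm2 (0.97, 0.86). The points share the same 7 libraries and each search covered 8228 genes or more, so values near 1 are a description and no test.

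Beyond the 8 genes, 4 lists of AMPK pathway genes were read from the same fit, 72 genes of which 69 were analysed here. In these lists 3 genes were called, all lower in hypercapnia, which is 4.35% of the 69 beside 2.57% of all genes and 4.75% of genes averaging at least 1 RPM. The median log2 difference was 0.07 over the 69, with 39 above and 30 below 0, and no gene passed after adjustment (limma). Among all genes averaging at least 1 RPM, 7765 of 12504 were above 0, with a median of 0.16. That median depended on the processing and was 0.04 with median-of-ratios scaling.

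Among 18 of 20 regulators of AMPK, which include the LKB1 partners, calmodulins, and sestrins, 0 were called and 13 of 18 differences were above 0 (median 0.16). The most abundant was Calm2, a calmodulin gene, with a log2 difference of 0.14 (SE 0.21). Ppm1a, a phosphatase that can dephosphorylate AMPK, was the only one of the list with an unadjusted p under 0.05, at -0.52 (SE 0.19, adjusted p = 0.915, limma), short of 1.5-fold. It passed both thresholds with DESeq2 (-0.76), without NC2 (-0.67), and without HC3 (-0.63). Its unadjusted p was over 0.05 with median-of-ratios (0.0744, limma) and quantile scaling (0.0550, limma), and with edgeR (0.0551). The same held with genes averaging under 1 RPM left out (0.107, limma), and without NC1, NC3, HC1, HC2, or HC4.

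Among the 12 AMPK-related kinases that LKB1 also activates, 1 was called, and 8 of 12 differences were below 0 (median -0.24). Sik2, a salt-inducible kinase, had 21.7, 39.1, and 41.1 RPM in normocapnia and 17.4, 19.5, 19.4, and 16.7 RPM in hypercapnia. The groups did not overlap, although NC1 lay close to the hypercapnia libraries. Sik2 fell by 0.81 on the log2 scale (SE 0.24, unadjusted p = 0.0155, adjusted p = 0.909, limma), a call lost without NC2 (-0.69) or NC3 (-0.65). With median-of-ratios (-0.95) and quantile scaling (-0.89) the difference was larger, but its unadjusted p was 0.0652 and 0.0803 (limma). The most abundant gene of the list, Sik1, had a difference of -0.39 (SE 0.28), or -0.079 without NC2, and was not called.

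Among 32 of 33 genes encoding AMPK substrates, 2 were called, both lower, while 18 of 32 differences were above 0 (median 0.08). Crtc2, a coactivator of CREB that AMPK and the salt-inducible kinases keep in the cytoplasm, had 102, 102, and 142 RPM in normocapnia and 54.3, 58.2, 78.0, and 70.1 RPM in hypercapnia. All normocapnia libraries were above all hypercapnia libraries. Crtc2 fell by 0.81 on the log2 scale (SE 0.18, 95% interval -1.27 to -0.35, unadjusted p = 0.0054, adjusted p = 0.752, limma) and was called in each of 16 alternative analyses. Txnip, which encodes a protein that restrains glucose uptake and was the most abundant of the list, had 497, 315, and 461 RPM in normocapnia and 155, 184, 228, and 311 RPM in hypercapnia. Its groups were separated only narrowly, by NC2 and HC4. Txnip fell by 0.97 on the log2 scale (SE 0.29, unadjusted p = 0.0178, adjusted p = 0.911, limma), and the call was lost without NC1 (-0.84) or NC3 (-0.90).

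The groups also did not overlap for Becn1, a substrate gene that was not called and was picked out after its values were seen. Becn1, which encodes the autophagy protein Beclin-1, had 84.4, 100.6, and 68.1 RPM in normocapnia and 119, 130, 105, and 108 RPM in hypercapnia, a log2 difference of 0.46 (SE 0.15, adjusted p = 0.915, limma). Becn1 passed both thresholds without NC2 (0.60), and its unadjusted p was 0.0176 with quantile scaling (limma). The unadjusted p was over 0.05 with median-of-ratios scaling (0.188, limma), edgeR (0.227), and DESeq2 (0.297). The same held with genes averaging under 1 RPM left out (0.122, limma), and without NC1, NC3, HC1, or HC2. Ulk1, the autophagy kinase downstream of AMPK, had 71.4, 79.7, and 3.03 RPM in normocapnia and 42.5, 53.3, 37.4, and 37.4 RPM in hypercapnia. NC1 and NC2 lay above all hypercapnia libraries and NC3 far below them. The log2 difference of 0.59 had an SE of 1.13 (adjusted p = 0.962, limma) and turned with NC3, since it was -0.82 without that library (unadjusted p = 0.0065, limma). It was also negative with edgeR (-0.18) and DESeq2 (-0.21).

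Among 7 genes listed for the ubiquitination of AMPK, not all of which encode enzymes, 0 were called (median 0.01). Cidea, 1 of the 7, had only 2 reads, both in NC2 (0.086 RPM), below the floor of 3 reads. The most abundant, the ligase gene Wwp1, had 140, 173, and 740 RPM in normocapnia and 336, 374, 175, and 221 RPM in hypercapnia. Like Prkaa1 it was highest in NC3, and its log2 difference of 0.01 (SE 0.67) was negative with median-of-ratios scaling, edgeR, and DESeq2.

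**Figure D4:**
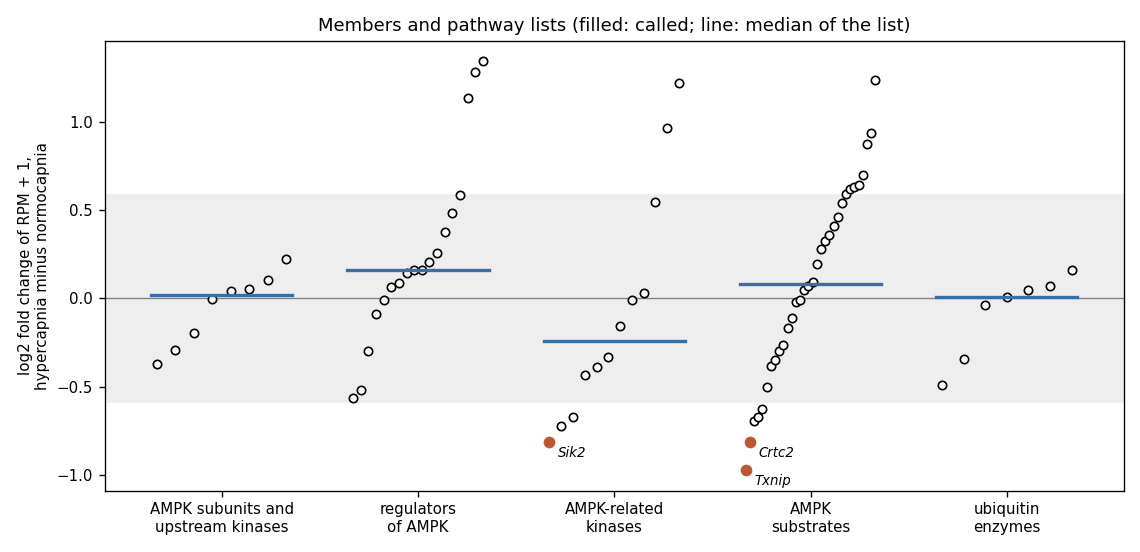
Log2 difference in RPM + 1 between hypercapnia and normocapnia (vertical axis) for the 8 genes and the 4 pathway lists, with 1 point per gene, filled where called, and a blue line at the median of each list. The 8 genes lie between -0.37 and 0.22 with none filled, and the 3 filled points are Sik2, Crtc2, and Txnip, all below 0.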

How the data were processed

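RNA of sorted Pax7-GFP cells was measured in 3 normocapnia and 4 hypercapnia libraries with the Ion AmpliSeq Transcriptome Mouse panel. The authors deposited RPM, read counts scaled to the same total in every library. The aligner and the genome build were not given in the sources used here. Nor is the use of strand in counting stated. Whole reads were recovered from the RPM steps (100% of values whole within 0.05 reads, checked on 3 simulated libraries), and floors of 3 reads lay at 0.128 to 0.207 RPM. The groups were taken from the sample labels.

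Group differences were tested with limma 3.58.1 (R 4.3.3) across all 23930 genes, unfiltered, on the log2(RPM + 1) scale, and genes were called at over 1.5-fold with an unadjusted p under 0.05, with Benjamini-Hochberg adjusted p-values over all genes. Isoform ratios were compared by a two-sided exact permutation test. Alternatives were a pseudocount of 0.1 or 5 RPM, leaving out genes averaging under 1 RPM, scaling by median of ratios or by quantiles, edgeR 4.0.16 and DESeq2 1.42.0 on the recovered reads (802 and 1304 genes called), leaving out each library, and the replicate number as a block. The fits were tested on simulated data. The members and lists were chosen with earlier results of these data known. Named were all members, the called genes (at most 4) and the most abundant gene of each pathway list, the 2 most abundant genes of each marker list, and the 3 genes most like each member in log2(RPM + 1) over the 7 libraries. Pax7, Myog, Adgre1, Ms4a7, C1qa, C1qb, Cd14, Cx3cr1, Fcgr1, Ly6g, Camp, Ppm1a, Becn1, Ulk1, and Prkag2os1 fall outside this rule. An item that the rule names is not reported here. Primer positions came from exact matches to GENCODE M21 transcripts (GRCm38), and promoter windows from RefSeq (GRCm38.p6), in which all 8 members were found.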

Additional observations from a re-analysis of the deposited data

Results flagged for a closer look

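In hypercapnia, Prkab1 had 1 library (HC2, 53.9 RPM) below the other 3, which lay between 64.1 and 65.1 RPM. The gap was 0.913 of the range of the group, above Dixon's 95% critical value for 4 libraries. Camkk2 had 1 hypercapnia library (HC4, 86.6 RPM) above the other 3, which lay between 74.5 and 76.1 RPM, with a gap of 0.870 of the range. These were 2 of 17 sets of hypercapnia values examined, and chance alone marks about 1 in 20 such groups.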

How the results depend on the processing

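No member was called in any of the 16 alternatives, and Crtc2 was called in all 16, with log2 differences from -1.07 to -0.65. Without a library in turn, the differences ran from -0.59 to 0.014 for Prkaa1, -0.078 to 0.75 for Prkaa2, -0.54 to -0.10 for Prkab1, -0.26 to 0.64 for Prkab2, -0.34 to 0.41 for Prkag2, -0.79 to 0.97 for Prkag3, -0.089 to 0.30 for Stk11, -0.13 to 0.47 for Camkk2, and -0.44 to 0.76 for Wwp1. The ratio differences ran from -1.34 to 0.092 for Prkaa1 to Prkaa2, -0.87 to 0.16 for Prkab1 to Prkab2, and -1.31 to 1.18 for Prkag2 to Prkag3, and the last was -0.018 with a pseudocount of 0.1 RPM, where Prkag3 itself was at 0.017. The genes called over the table ran from 376 (without HC2) to 1990 (without NC1), with 1205 without NC2 and 385 without HC1, and the pathway genes called from 3 to 12 (without NC1), with 6 without NC2 or HC3. DESeq2 called 1304 genes and 9 pathway genes, edgeR 6 pathway genes, edgeR without a filter 1049 genes and 7 pathway genes, and quantile scaling 5 pathway genes, against 615 and 3. The median difference, 0.16 over genes averaging at least 1 RPM, moved to 0.04 with median-of-ratios and -0.01 with quantile scaling. It was -0.01 with edgeR and -0.04 with DESeq2. With median-of-ratios scaling Prkab2 was at -0.094, Stk11 at -0.087, Camkk2 at -0.038, Calm2 at -0.00080, and Wwp1 at -0.13. With quantile scaling Prkaa2 was at -0.0098 and Prkab2 at -0.15. With edgeR Prkab2 was at -0.15, Stk11 at -0.053, Camkk2 at -0.10, and Wwp1 at -0.68, and without its filter at -0.16, -0.043, -0.10, and -0.61. With DESeq2 they were at -0.20, -0.096, -0.14, and -0.74. The cause was not tested.

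NC and HC libraries share replicate numbers, but the deviations of same-numbered libraries correlated at -0.38, 0.51, and 0.03. Not every pair was over 0.1, so the libraries were treated as sharing only a number, although NC2 and NC3, 2 of the 3 normocapnia libraries, correlated best with their own number. With the replicate number as a block, 598 genes, 5 pathway genes, and 0 members were called, with Prkaa2 at -0.066, Prkab2 at -0.12, and Prkag2 at 0.018. HC4 has no partner and does not enter the block difference.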
